A study of Mus musculus with 8 samples.

Results

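Laminins, nidogens, perlecan and agrin build the basement membrane, the thin sheet of matrix beneath epithelial and endothelial cells. The genes were Lama2, Lama4, Lama5, Lamb1, Lamb2, Lamc1, Nid1, Nid2, Hspg2 and Agrn. They were matched to the array by platform symbol, and every probe of theirs was taken. They were 10 of the 19057 genes named on the array and had 19 of its 45281 probes. Of these, 12 probes of 9 genes were bright enough to test, of 18601 probes tested in all.

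The RNA came from whole kidneys of adult male mice of the strain given as C57/bk, collected 7 days after unilateral ureteral obstruction, in which 1 ureter is tied and the kidney behind it becomes fibrotic. The mice had received either anti-miR-214, an oligonucleotide that blocks the microRNA miR-214, or a control antimiR. There were 4 animals in each group, with 1 Illumina bead array per animal. Both groups carried the obstruction, and kidneys without obstruction, doses and dosing times were not analysed here. P-values measured the spread between these animals. Whole kidney mixes many cell types, so fewer cells of a type and less RNA per cell cannot be told apart in any result below.

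Laminins are trimers of an alpha, a beta and a gamma chain that polymerise into a sheet on the cell surface. Nidogens bind the laminin gamma chain and collagen IV, and the heparan sulfate proteoglycans perlecan (encoded by Hspg2) and agrin (Agrn) bind laminin, growth factors and cell receptors. In the kidney, laminin with the alpha 5 chain, the beta 2 chain and the gamma 1 chain is the main laminin of the mature glomerular basement membrane, and agrin is its abundant proteoglycan.

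The blocked microRNA and the promoters of 2 genes described below are shown for orientation. The mature strands of mouse miR-214 in RefSeq (GRCm38.p6) lie on the plus strand of chromosome 1, at chr1:162223438-162223459 for the 3p strand and chr1:162223397-162223418 for the 5p strand. They read as follows, with the seed (bases 2 to 8) in capitals.
mmu-miR-214-3p: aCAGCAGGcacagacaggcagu
mmu-miR-214-5p: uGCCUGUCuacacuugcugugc
The labels do not say which strand the antimiR was made against.

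Of the 10 genes, 7 had a RefSeq promoter window of 300 bases, from 250 before to 50 after the transcript start, and Agrn had a pair of windows, which made 8. Lama4, Lamc1 and Nid2 had no entry. Lama2 and Nid1 are printed because both were lower after anti-miR-214 by their brightest probe. The capitals mark the GC box GGGCGG, searched on both strands. The Lama2 window is chr10:27616893-27617192 on the minus strand and the Nid1 window is chr13:13437352-13437651 on the plus strand.
Lama2: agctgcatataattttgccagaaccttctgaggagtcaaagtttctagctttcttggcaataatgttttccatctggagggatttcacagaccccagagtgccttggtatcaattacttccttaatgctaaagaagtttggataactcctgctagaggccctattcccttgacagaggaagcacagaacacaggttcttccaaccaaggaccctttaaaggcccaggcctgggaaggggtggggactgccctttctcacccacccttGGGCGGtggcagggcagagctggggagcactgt
Nid1: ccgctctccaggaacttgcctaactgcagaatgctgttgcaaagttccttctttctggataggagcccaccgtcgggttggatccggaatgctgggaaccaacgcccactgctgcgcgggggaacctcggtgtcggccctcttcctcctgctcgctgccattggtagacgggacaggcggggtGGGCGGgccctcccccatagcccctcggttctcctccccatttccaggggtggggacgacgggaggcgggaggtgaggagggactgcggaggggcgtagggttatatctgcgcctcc
GGGCGG was found in 7 of the 8 windows, all but that of Lamb2, against 35.7% of 32851 RefSeq promoter windows. The Lama2 and the Nid1 window held 1 copy each, with a GC content of 50.3% and 64.7%. TATAAA was in 0 of the 8 windows, against 13.6% of all windows. The match is a description of the letters only.

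Lama2, Nid1 and Nid2 were lower in anti-miR-214 kidneys, and no gene was higher by its brightest probe. Nid1 was 2.13-fold lower by its brightest probe and Nid2 1.88-fold. A dimmer Nid1 probe was 1.48-fold higher and passed the test, and the mean of both Nid1 probes did not pass. Lama2 was 3.97-fold lower by its fitted value, but its signal was above background on only 1 of the 4 anti-miR-214 arrays, and it was 2.65-fold lower with the undetected arrays set to the lowest detected signal. The common laminin chains Lama5, Lamb1, Lamb2 and Lamc1 and the proteoglycans Hspg2 and Agrn did not pass the test. Intensities are log2 values after background correction and quantile normalization, a gene is represented by its tested probe of highest mean intensity, and a gene passed when limma's p, Benjamini-Hochberg adjusted over the 18601 probes, was under 0.05. By that rule 3 of the 9 tested genes were lower, against 9.93% of 10734 named genes, and 0 were higher, against 12.3%. With detection required on all 8 arrays, Lama2 was not tested, and Nid1 and Nid2 were the 2 genes lower of 8. Under that filter 1775 of the 15102 tested probes were lower. The median change of the 9 genes was -0.20 on the log2 scale (range -1.99 to 0.09), against 0.08 over all named genes. The set was chosen with earlier results of these data known, so these shares are descriptions.

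**Figure D1:**
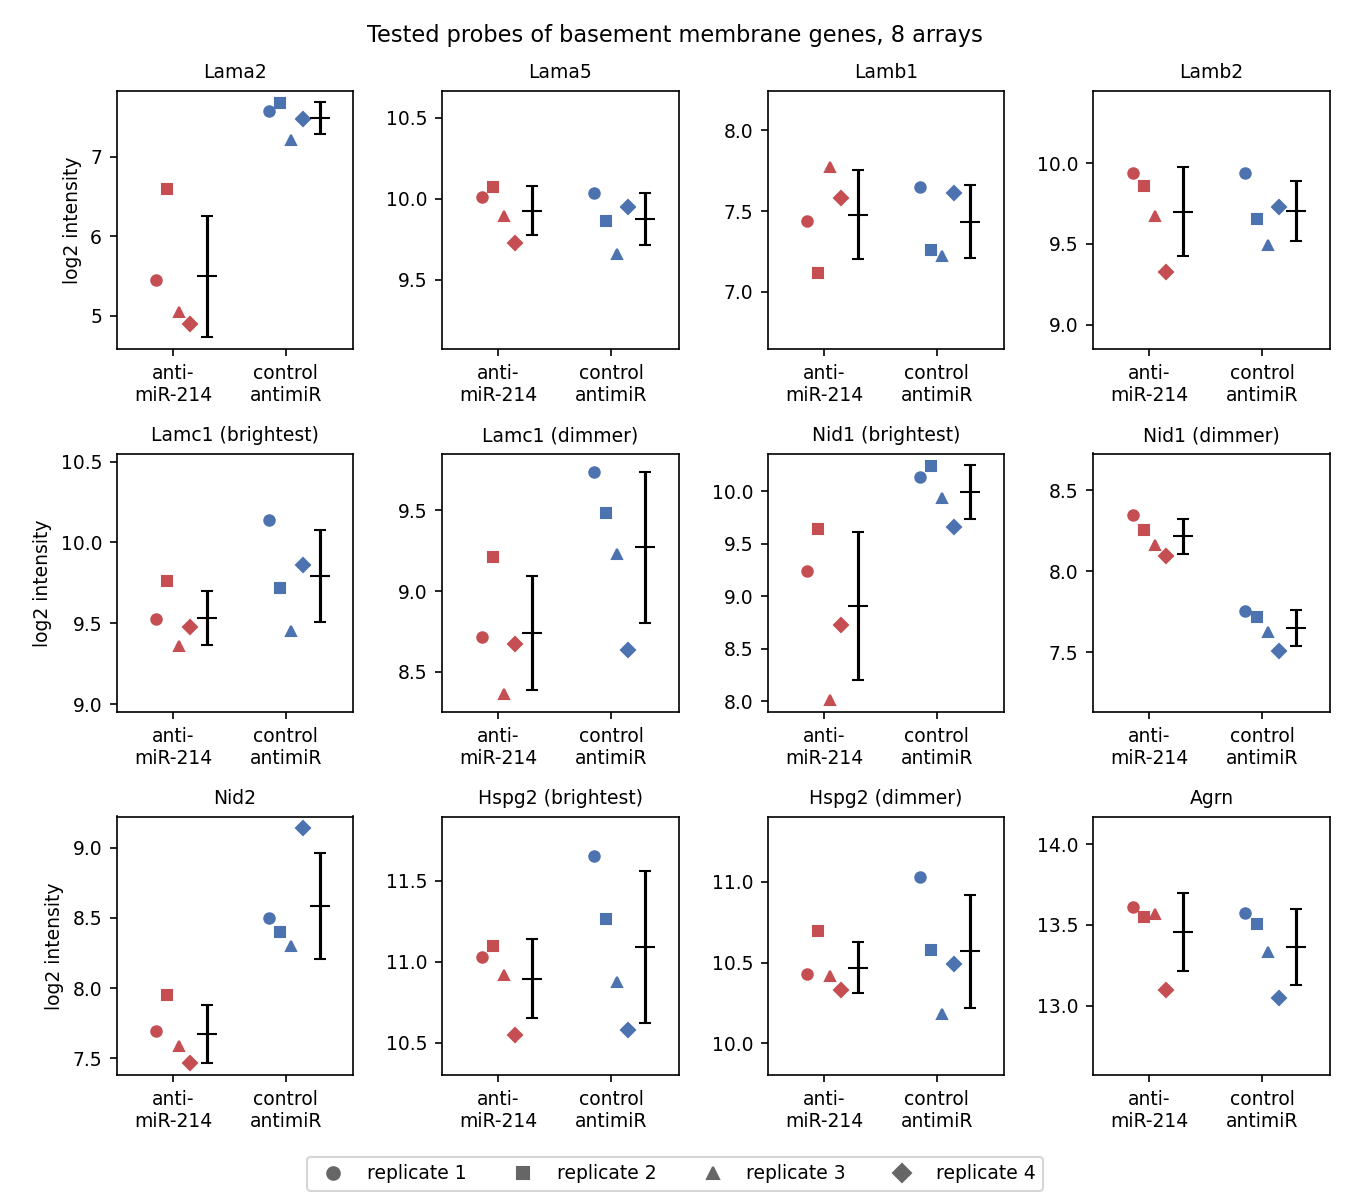
Log2 intensity (y axis) of the 12 tested probes on each array, with anti-miR-214 on the left and control antimiR on the right of each panel. Symbols give the replicate number, and bars give the mean and SD of 4 animals. The groups stand apart for Lama2, both Nid1 probes and Nid2, with the dimmer Nid1 probe higher in anti-miR-214, and overlap in the other 8 panels.

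Lama2 encodes the alpha 2 chain, which is best known from muscle and peripheral nerve basement membranes. Its probe for the RefSeq transcript read 5.45, 6.59, 5.05 and 4.90 in anti-miR-214 kidneys, against 7.57, 7.68, 7.21 and 7.48 in control antimiR kidneys. Every anti-miR-214 value lay below every control value, as for 10.7% of named genes, and replicate 2 stood highest of the treated animals. The change was -1.99 (SE 0.31, 95% interval -2.67 to -1.31, limma adjusted p = 0.00208). The signal was above background on 1 of the 4 anti-miR-214 arrays, replicate 2, and on 4 of the 4 control arrays, so the probe passed the detection filter through the control group, where it was high, and its p is no independent support for the difference.

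The size of the Lama2 change depended on how the background was handled. The 2.65-fold value with undetected arrays at the lowest detected signal is one such setting and not a bound. Without background correction the change was -0.93. With the authors' processed values it was -2.65, after values below 16 were raised to 16 before log2, a floor chosen here. Both passed, but under the same detection filter, met through the control group, so these passes add no support. The raw intensities were 175, 206, 143 and 130 in anti-miR-214 kidneys, against 345, 370, 300.5 and 291 in control antimiR kidneys. Within slide 1, which held replicates 1 to 3 of both groups, the change was -1.79. Within slide 2, which held replicate 4 of both groups, it was -2.58. The other 2 Lama2 probes, annotated to cDNA clones, were above background on 0 of 8 arrays. The muscle markers Ckm and Myh4 and the Schwann cell markers Sox10 and S100b were above background on no array.

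Lama4 encodes the alpha 4 chain of vascular basement membranes. None of its 5 probes could be tested: 1 of them was above background on 1 control array and on 0 anti-miR-214 arrays, and the other 4 on none. No Lama4 probe was above background on enough arrays to enter the test.

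Lama5 encodes the alpha 5 chain of the glomerular and tubular basement membranes. It read 10.01, 10.07, 9.90 and 9.73 in anti-miR-214 kidneys, against 10.04, 9.86, 9.66 and 9.95 in control antimiR kidneys. The groups overlapped, with a difference of 0.05 (95% interval -0.23 to 0.33, limma adjusted p = 0.799).

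The beta chains gave intervals on both sides of 0. Lamb1, the beta 1 chain found in most embryonic and mesangial laminins, read 7.44, 7.12, 7.77 and 7.58 in anti-miR-214 kidneys, against 7.65, 7.26, 7.22 and 7.61 in control antimiR kidneys. Its difference was 0.04 (95% interval -0.32 to 0.41, limma adjusted p = 0.865). Lamb2, the beta 2 chain whose loss causes nephrotic syndrome, read 9.94, 9.86, 9.68 and 9.32 in anti-miR-214 kidneys, against 9.94, 9.66, 9.49 and 9.73 in control antimiR kidneys. Both Lamb2 means were 9.70 (SD 0.27 in anti-miR-214 and 0.18 in control antimiR kidneys, n = 4 each), with a 95% interval of the difference from -0.35 to 0.34 (limma adjusted p = 0.991). The slides went opposite ways for Lama5 (0.14 within slide 1, -0.22 within slide 2), Lamb1 (0.07 and -0.03) and Lamb2 (0.13 and -0.40).

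Lamc1 encodes the gamma 1 chain, which most laminins contain and which carries the nidogen-binding site. Its brightest probe read 9.53, 9.76, 9.36 and 9.48 in anti-miR-214 kidneys, against 10.14, 9.72, 9.45 and 9.86 in control antimiR kidneys. The ranges overlapped, and the difference was -0.26 (95% interval -0.61 to 0.09, limma adjusted p = 0.238), with -0.22 within slide 1 and -0.38 within slide 2. A dimmer Lamc1 probe read 8.72, 9.21, 8.36 and 8.68 in anti-miR-214 kidneys, against 9.73, 9.48, 9.23 and 8.64 in control antimiR kidneys.

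In the dimmer Lamc1 probe, control replicate 4 lay among the treated animals and the other control animals above all of them. Its difference was -0.53 (95% interval -1.05 to -0.0035, limma adjusted p = 0.122). Without control replicate 4 it was -0.74 and passed (adjusted p = 0.0341). It was -0.72 within slide 1 and 0.04 within slide 2. The difference in change between the 2 Lamc1 probes did not pass (-0.27, adjusted p = 0.395 over 5307 probe pairs of the array).

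**Figure D2:**
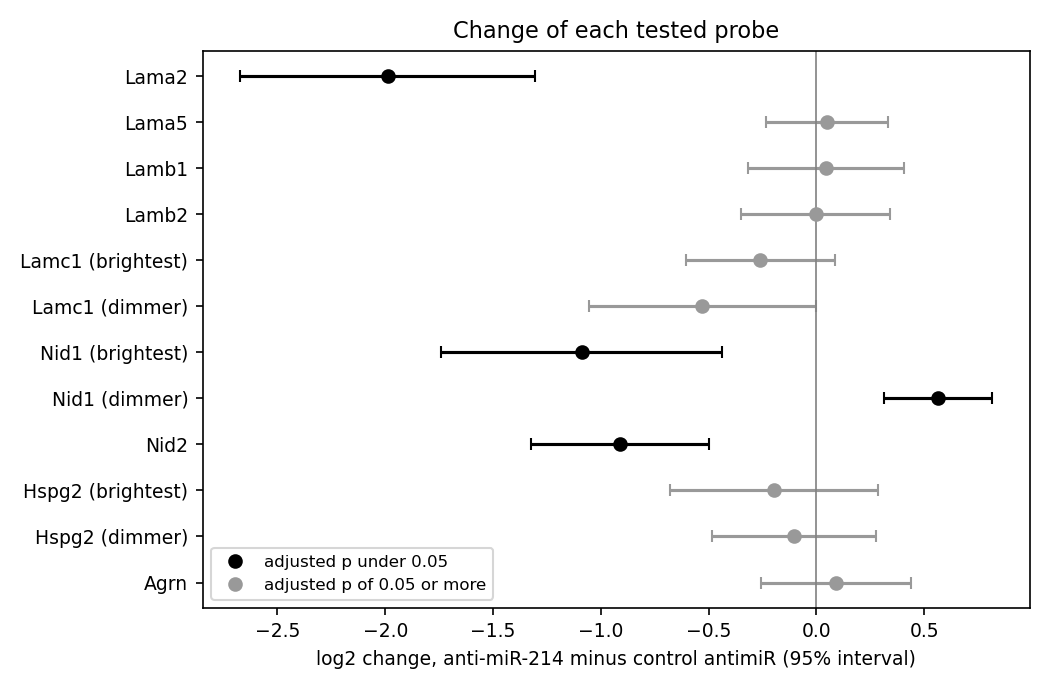
Change of each tested probe on the log2 scale, anti-miR-214 minus control antimiR (x axis), with its 95% interval. Black points passed the test. Lama2, the brightest Nid1 probe and Nid2 lie left of 0, the dimmer Nid1 probe lies right of 0, and the intervals of Lama5, Lamb1, Lamb2, Hspg2, Agrn and the brightest Lamc1 probe include 0.

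Nid1 and Nid2 encode the 2 nidogens, the rods that link laminin to collagen IV. The Nid1 probe of highest intensity, for the RefSeq transcript, read 9.24, 9.64, 8.01 and 8.73 in anti-miR-214 kidneys, against 10.14, 10.24, 9.94 and 9.66 in control antimiR kidneys. The groups did not overlap, but anti-miR-214 replicate 2 lay just below control replicate 4, and anti-miR-214 replicate 3 stood lowest. The change was -1.09 (SE 0.30, 95% interval -1.74 to -0.44, limma adjusted p = 0.0221).

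The Nid1 change was -1.14 within slide 1 and -0.93 within slide 2. Without anti-miR-214 replicates 3 and 4, the animals farthest from the controls over all probes, it was -0.54 and did not pass (adjusted p = 0.116). Nor did it pass without anti-miR-214 replicate 4 (-1.02, adjusted p = 0.0529), without control replicate 1 (-1.05, adjusted p = 0.0512), without control replicate 2 (-1.01, adjusted p = 0.0614), with slide 1 alone (adjusted p = 0.0675), or with all 45281 probes tested (adjusted p = 0.0606). It stayed below 0 under each alternative run, between -1.33 and -0.54.

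A second Nid1 probe, dimmer and annotated to a cDNA clone, gave the opposite direction. It read 8.35, 8.25, 8.16 and 8.10 in anti-miR-214 kidneys, against 7.76, 7.72, 7.63 and 7.51 in control antimiR kidneys. Every treated animal was above every control. The change was 0.56 (SE 0.11, limma adjusted p = 0.00665), or 1.48-fold higher, and it was 0.56 within slide 1 and 0.59 within slide 2. Over the 18601 tested probes, 11.8% were higher and 13.8% lower by the same rule, and 15.1% had every treated animal above every control. With arrays scaled to the median of all probes, the change of this probe was 0.28 and did not pass (adjusted p = 0.153). The raw intensities of this probe overlapped, at 470, 397, 363 and 355 in anti-miR-214 kidneys against 374, 376, 353 and 295 in control antimiR kidneys.

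The 2 Nid1 probes differed in change by 1.65 on the log2 scale (dimmer minus brightest, SE 0.27, limma adjusted p = 0.00166). Such a difference passed in 28.1% of the 5307 probe pairs of the array, so unequal probes of 1 gene were common in these libraries. Which transcript form each Nid1 probe reads was not tested. The RefSeq probe alone stands for Nid1 in the counts, and the direction of Nid1 rests on that choice. With the mean of its tested probes in place of the brightest, Nid1 read -0.26 and did not pass (limma adjusted p = 0.313). Lama2 and Nid2 had 1 tested probe each, so this step could not change their values and was no check of them.

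Nid2 had 1 probe, which read 7.69, 7.95, 7.59 and 7.46 in anti-miR-214 kidneys, against 8.50, 8.40, 8.30 and 9.14 in control antimiR kidneys. All treated animals were below all controls, and control replicate 4 stood highest. The change was -0.91 (SE 0.19, 95% interval -1.32 to -0.50, limma adjusted p = 0.0073). It was -0.66 within slide 1 and -1.67 within slide 2. Without anti-miR-214 replicates 3 and 4 it was -0.75 and did not pass (adjusted p = 0.0782).

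The proteoglycan core proteins did not pass. Hspg2, whose product perlecan carries heparan sulfate in most basement membranes, read 11.03, 11.09, 10.92 and 10.54 by its brightest probe in anti-miR-214 kidneys, against 11.65, 11.27, 10.87 and 10.58 in control antimiR kidneys. Control replicates 1 and 2 were above every treated animal, and control replicates 3 and 4 were not. The difference was -0.20 (95% interval -0.68 to 0.29, limma adjusted p = 0.533), and by a dimmer probe it was -0.10 (95% interval -0.48 to 0.28, adjusted p = 0.688). Agrn read 13.61, 13.55, 13.57 and 13.10 in anti-miR-214 kidneys, against 13.57, 13.50, 13.34 and 13.05 in control antimiR kidneys. Replicate 4 was the lowest of each group, and the difference was 0.09 (95% interval -0.26 to 0.44, limma adjusted p = 0.697). Within slide 1 and slide 2, the brightest Hspg2 probe read -0.25 and -0.03, and Agrn 0.10 and 0.05.

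**Figure D3:**
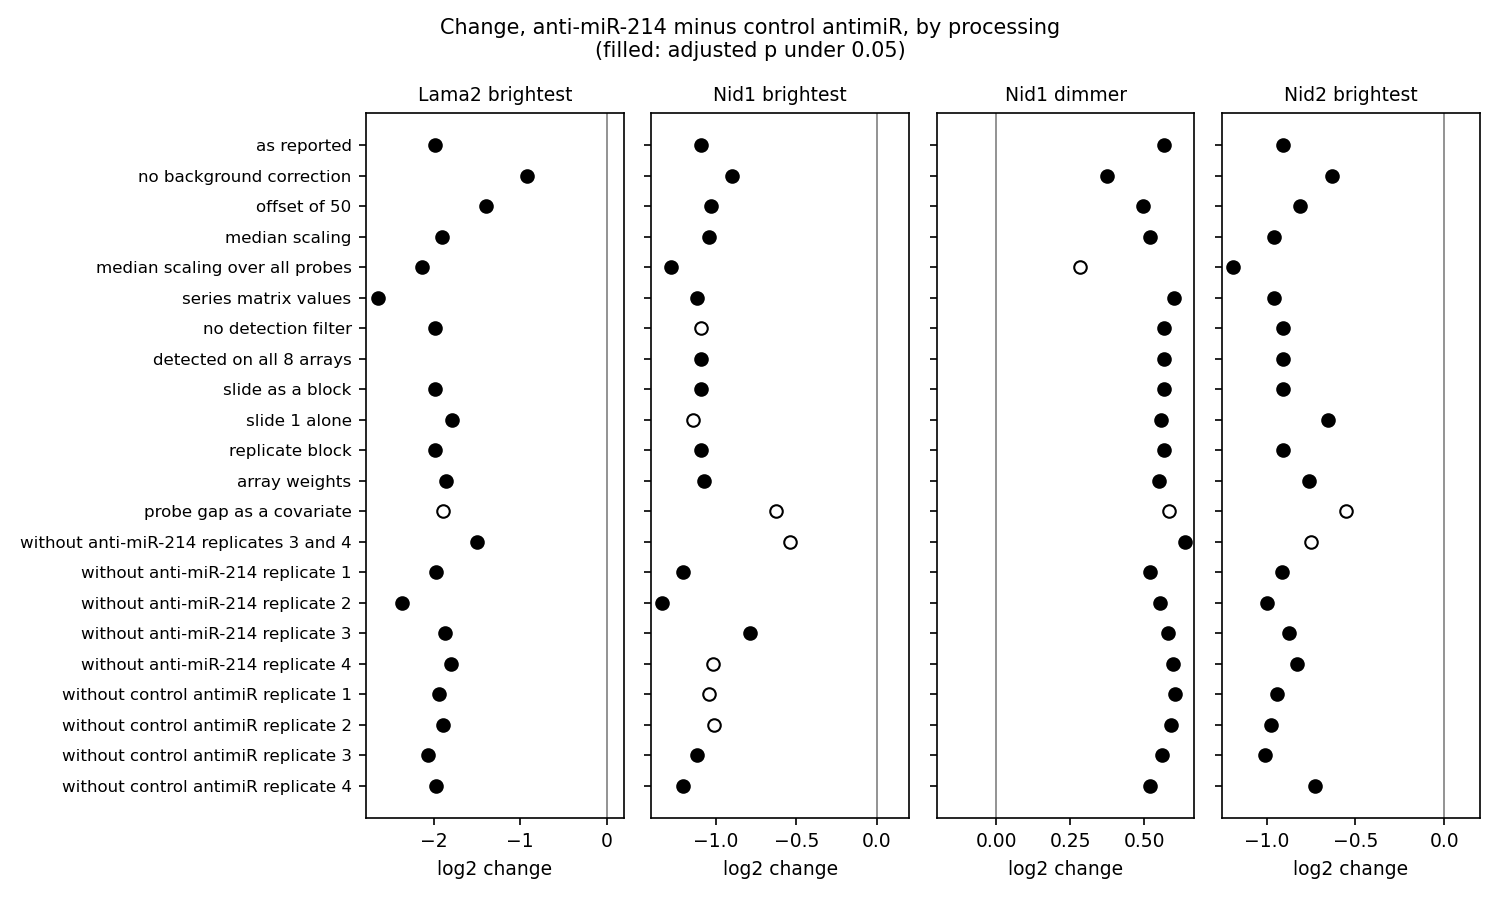
Change of Lama2, both Nid1 probes and Nid2 on the log2 scale, anti-miR-214 minus control antimiR (x axis), under each processing alternative (rows). Filled points passed the test and open points did not; x scales differ between panels. All points keep their side of 0, and with the probe gap as a covariate all 4 are open.

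Of 3 measures of the arrays, 2 differed between the groups, as did the brightest probes of Lama2, Nid1 and Nid2. Probes above background numbered 17378 ± 438 on anti-miR-214 arrays and 19178 ± 284 on control arrays (SD, n = 4 each, exact two-sided permutation p = 0.0286, the smallest this design allows, Benjamini-Hochberg 0.0429 over 3 measures). The probe gap, the mean log2 distance of the dimmer probes from the brightest probe of the same gene, was -1.85 ± 0.038 on anti-miR-214 arrays and -1.73 ± 0.031 on control arrays (exact permutation p = 0.0286, Benjamini-Hochberg 0.0429). The raw upper quartile of intensity, 269 ± 20.6 on anti-miR-214 and 307 ± 20.8 on control arrays, did not pass (exact permutation p = 0.0571, Benjamini-Hochberg 0.0571). The gap did not overlap between the groups (-1.88 to -1.79 on anti-miR-214 arrays, -1.77 to -1.70 on control arrays). A limma fit with the gap as a covariate therefore cannot tell the gap and the treatment apart. In that fit 0 of the 9 genes passed, and the SE of Lama2 was 0.70, against 0.31 without the gap. The values for Lama2, Nid1 and Nid2 were then -1.89, -0.63 and -0.55, and over the whole array 3 probes were called lower and 0 higher. The part of RNA quality in the results was not tested beyond this.

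Markers of several cell types also moved. Each sum of linear levels was taken over the brightest probe of every listed gene on the array, tested or not. Over all named genes, 9.93% were lower and 12.3% higher. All 8 kidney marker genes, such as Umod of the thick ascending limb, were above background on all 8 arrays. Of 7 tested endothelial markers 3 were lower and 0 higher, with a summed linear level of 3824 to 7973 in anti-miR-214 and 7638 to 10846 in control antimiR kidneys. Pecam1, an endothelial junction protein, was lower by its brightest probe (-1.17, limma adjusted p = 0.0135), as was Plvap of fenestrated capillaries (-1.03, adjusted p = 0.0192). Of 7 tested fibroblast and pericyte markers 5 were lower, and the sum was 5611 to 9864 against 9331 to 14335, with Postn undetected. Col1a1 changed by -1.27 (adjusted p = 0.0065) and Col3a1 by -1.16 (adjusted p = 0.0084).

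Of 4 tested smooth muscle markers 1 was lower, Acta2 (-0.63, limma adjusted p = 0.0338), with Cnn1 undetected and a sum of 5977 to 9488 in anti-miR-214 against 8467 to 14295 in control antimiR kidneys. The Acta2 call was lost without any one of anti-miR-214 replicates 3 and 4 and control replicates 1, 2 and 4, and with median scaling (-0.35, adjusted p = 0.14). Of 4 tested macrophage markers 2 were lower, Lyz2 (-2.32, limma adjusted p = 0.0021) and Mrc1 (-1.18, adjusted p = 0.0058). The macrophage sums did not overlap, at 2198 to 5173 in anti-miR-214 against 8392 to 9600 in control antimiR kidneys. Of 6 tested podocyte markers 3 were higher, with sums of 6773 to 7128 against 4938 to 6649. Cdkn1c kept its call in 1 of 8 fits with 1 animal left out, and Nphs1 in 8 of 8. Neither passed without anti-miR-214 replicates 3 and 4 or with scaling to the median of all probes. Among the 6 tested proximal tubule markers 1 was higher and none was lower. The 2 tested markers each of skeletal muscle and of fat did not pass. Sums over the 5 muscle genes on the array were 161 to 184 in anti-miR-214 against 116 to 194 in control antimiR kidneys. Sums over the 4 fat genes were 126 to 163 against 132 to 467, with Plin1 undetected. Adipoq, not tested, read 8.29 in control replicate 2 and at most 5.50 in every other animal. The part of cell makeup in the changes of Lama2, Nid1 and Nid2 was not tested.

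**Figure D4:**
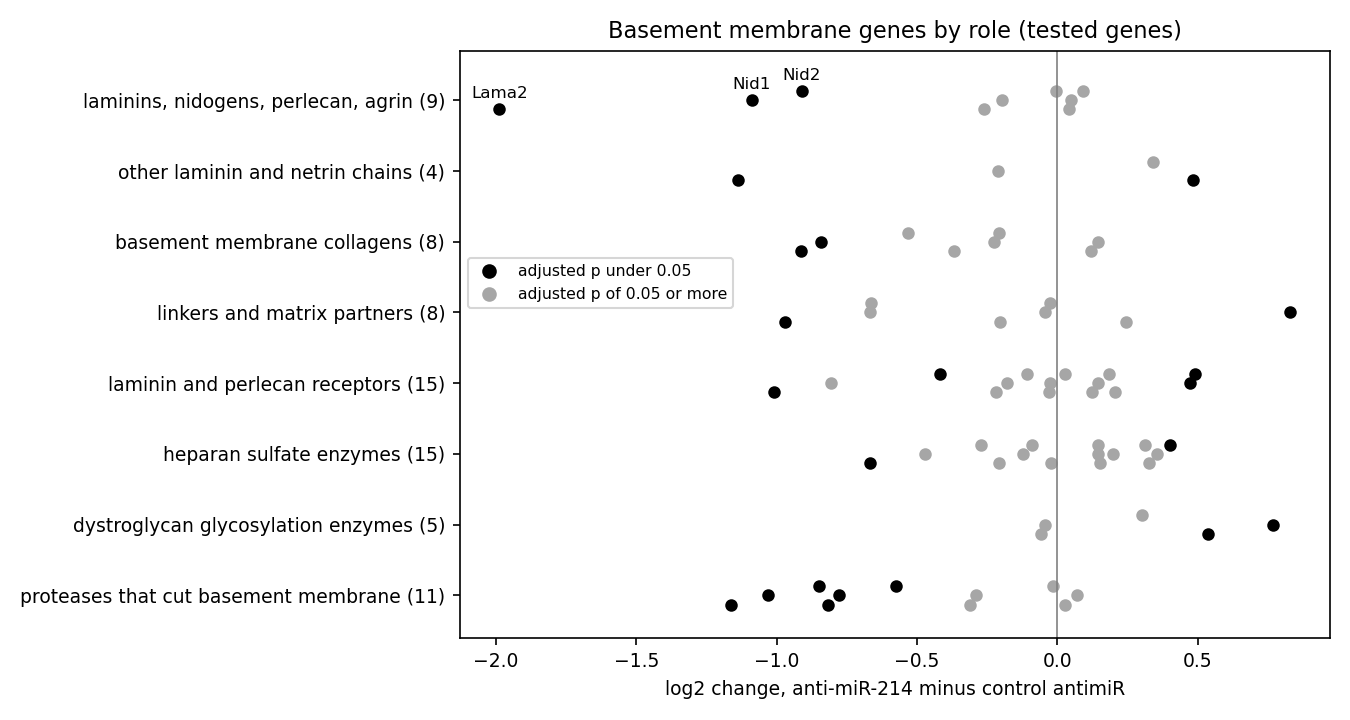
Change of each tested gene by its brightest probe on the log2 scale, anti-miR-214 minus control antimiR (x axis), for the laminins, nidogens and proteoglycans and for 7 related gene lists (rows, number of tested genes in brackets; points are spread vertically for legibility). Black points passed the test. The proteases have 6 black points, all left of 0, and the dystroglycan glycosylation enzymes have 2, both right of 0.

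Calls among the related genes of the basement membrane went in both directions, with more lower than higher. Over all named genes more were higher (1323) than lower (1066). Over 7 lists with 66 tested genes, 13 genes were lower and 7 were higher, beside 9.93% lower and 12.3% higher over all named genes. Of these 20, 12 kept their call when any 1 animal was left out, and 5 kept it without anti-miR-214 replicates 3 and 4. With the probe gap as a covariate, which cannot be told apart from the treatment, 0 kept it. The shares over all named genes also stand beside the counts of each list below.

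Among 4 tested chains outside the set, Ntn4 was lower and Lama1 was higher. Ntn4 encodes netrin 4, which is related to the laminin short arms and binds the gamma chain. It read 7.86, 7.90, 7.47 and 7.95 in anti-miR-214 kidneys, against 8.77, 8.93, 9.19 and 8.84 in control antimiR kidneys. The groups were well apart, with a change of -1.14 (SE 0.14, limma adjusted p = 0.000848). A dimmer Ntn4 probe was above background on no anti-miR-214 array and on all control arrays, and was at least 2.93-fold lower (adjusted p = 0.000382). It entered the test through the control group, so it adds no support to the brightest probe. Lama1, the alpha 1 chain of embryonic and proximal tubular basement membranes, was 1.40-fold higher (0.48, adjusted p = 0.018). It did not pass in slide 1 alone, without anti-miR-214 replicates 3 and 4, or with arrays scaled to the median of all probes (0.21, adjusted p = 0.276). Lamc3 read 0.34 higher without a pass (adjusted p = 0.0764), and a dimmer probe of it passed at 0.50 (adjusted p = 0.0422).

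Of 8 tested basement membrane collagens 2 were lower and 0 higher, with a median of -0.30. Col4a3, a chain of the glomerular collagen IV network, read 7.95, 8.06, 8.16 and 8.36 in anti-miR-214 kidneys, against 8.69, 8.85, 9.15 and 9.20 in control antimiR kidneys. No treated animal reached the controls, and the change was -0.84 (limma adjusted p = 0.00366). Col15a1, a collagen that bears glycosaminoglycans, changed by -0.91 (adjusted p = 0.0353), with overlapping groups. It did not pass without any one of anti-miR-214 replicates 3 and 4 and control replicates 1, 2 and 4. Col4a2, a chain of the common network, read -0.53 without a pass (adjusted p = 0.0757).

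Of 8 tested linkers and matrix partners 1 was lower and 1 higher. Tinagl1, a secreted protein that binds laminin and integrins, read 8.09, 8.31, 8.18 and 7.77 in anti-miR-214 kidneys, against 7.44, 7.20, 7.28 and 7.11 in control antimiR kidneys. All treated animals were above all controls, at a change of 0.83 (limma adjusted p = 0.00296), while a dimmer probe of the gene did not pass (0.28, adjusted p = 0.293). Fbln2, a binding partner of nidogen and laminin, changed by -0.97 (adjusted p = 0.0225) with overlapping groups, and did not pass without anti-miR-214 replicate 4, control replicate 2 or control replicate 4. Sparc, which binds collagen IV, had a brightest probe that did not pass (-0.66, adjusted p = 0.0683) and a dimmer one that did (-1.95, adjusted p = 0.00234).

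Of 15 tested receptors 2 were lower and 2 higher. Itga1, the collagen and laminin integrin alpha 1, changed by -1.01 (limma adjusted p = 0.0167), and with the probe gap as a covariate its value was 0.09. Sdc4, a cell surface heparan sulfate proteoglycan, was 1.39-fold higher (0.47, adjusted p = 0.0112). Itga7, the laminin-binding integrin alpha 7, read 0.49 (adjusted p = 0.0199), and Sdc3 read -0.42 (adjusted p = 0.0413), and both calls were lost when some single animals were left out. The main receptor chains Itgb1, Itga3, Itga6 and Dag1 did not pass, with values of 0.03, -0.03, 0.12 and 0.21.

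Among enzymes that modify these proteins, calls were made in both directions. Of 15 tested heparan sulfate enzymes 1 was lower, the sulfotransferase Hs3st1 (-0.67, limma adjusted p = 0.013), and 1 was higher, the chain-starting Xylt2 (0.40, adjusted p = 0.0206), with 13 that did not pass. B3gat3, which completes the linker of the chain, read 0.31 without a pass (adjusted p = 0.0604), and of its dimmer probes 1 passed at 0.98 (adjusted p = 0.00341). Of 5 tested enzymes that build the laminin-binding sugar of dystroglycan, 2 were higher and 0 lower. Pomgnt1 read 8.11, 8.44, 8.55 and 8.60 in anti-miR-214 kidneys, against 7.68, 7.67, 7.51 and 7.76 in control antimiR kidneys, with no overlap and a change of 0.77 (adjusted p = 0.00347). Pomt2 changed by 0.54 (adjusted p = 0.0095), and B4gat1 read 0.30 (adjusted p = 0.123).

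Of 11 tested proteases that cut basement membrane, 6 were lower and 0 higher, at a median of -0.58, beside 9.93% lower over all named genes. Adamts1, a protease of matrix proteoglycans and nidogens, read 7.67, 7.98, 8.03 and 7.20 in anti-miR-214 kidneys, against 8.90, 9.07, 8.85 and 8.72 in control antimiR kidneys. The groups were apart, with a change of -1.16 (limma adjusted p = 0.00206), although its 2 dimmer probes did not pass (-0.32 and 0.47). Mmp14, a membrane-bound metalloprotease, changed by -1.03 (adjusted p = 0.00803), Plat by -0.85 (adjusted p = 0.0176), Ctss by -0.58 (adjusted p = 0.0258) and Mmp2 by -0.82 (adjusted p = 0.0485). Ctsl changed by -0.78 (adjusted p = 0.0187) and was above background on 2 of the 4 anti-miR-214 arrays. It therefore met the detection filter only with control arrays, where it was high, and its p is no independent support for the difference. Of the 6, Adamts1, Mmp14 and Plat kept their call when any 1 animal was left out, and only Adamts1 kept it without anti-miR-214 replicates 3 and 4. Mmp2 did not pass without any one of anti-miR-214 replicates 1, 3 and 4 and control replicates 1, 2 and 3, Ctss without anti-miR-214 replicate 3 or control replicate 2 or 3, and Ctsl without control replicate 2. Mmp2 also did not pass without background correction or with median scaling. Macrophage markers moved with the cathepsins Ctsl and Ctss, and fibroblast markers with Mmp2 and Mmp14, and their part was not tested.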

How the data were processed

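Total RNA was amplified to biotin-labelled cRNA, per the labels' protocols, and hybridised to Illumina mouse bead arrays. The deposited main table held a linear bead intensity, not normalized per the file headers, and a detection p-value for each of 45281 probes and 8 arrays. The authors' second table held processed intensity values. Their rank order equalled that of the first table on each array, their upper quartile was 147.7 on every array and 29.05 to 29.16% of them lay below 0; how they were made is not given in the sources used here, so their scale is taken as linear and their background step is unknown.

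Intensities were processed with neqc of limma 3.58.1 in R 4.3.3: normexp background with negative controls inferred from the detection p, an offset of 16, quantile normalization and log2, with the log2 values computed here from the deposited intensities. Probes entered the fit if 4 or more of the 8 arrays gave them a detection p below 0.05. The limma fit (lmFit, eBayes) had group as its only term, and p-values were two-sided and Benjamini-Hochberg adjusted over 18601 probes. Fold changes are powers of 2 of log2 differences. Slide was taken from the column names of the file. The number of arrays limits the precision. Probes were named by the platform annotation: 34885 had 1 symbol, 18 several and 10378 none.

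Named were all 10 genes, and from each other list the genes past the threshold and the 3 of smallest p (2 for markers); Itgb1, Itga3, Itga6 and Dag1 were named after their values were seen. The members, lists and tests were chosen with earlier results of these data known. Alternatives covered background, offset, scaling, filter, slide, replicate number, array weights, probe gap and left-out animals. In the alternative with the authors' processed values, values below 16 were raised to 16 before log2. The largest correlation between raw arrays was 0.991, with no array deposited in duplicate.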

Additional observations from a re-analysis of the deposited data

Results flagged for a closer look

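Among the 24 groups of 4 values tested for a sample far from the others (12 probes in each of the 2 groups), 1 stood out by Dixon's test. This was Agrn in anti-miR-214 kidneys, where replicate 4 read 13.095 and the other 3 animals lay between 13.55 and 13.61. Chance gives about 1 such group in 20. Control replicate 4, on the same slide, was also the lowest of its group for Agrn, at 13.05.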

How the results depend on the processing

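Lower and higher probes over the array numbered 2566 and 2195 as reported, 1474 and 1075 in slide 1 alone, 3 and 0 with the probe gap as a covariate, and 971 and 429 without anti-miR-214 replicates 3 and 4. Scaling to the median of all probes, an alternative chosen after seeing the data, gave 4509 and 551, since it moved the median of all tested probes to -0.15 against 0.05 as reported. Leaving out 1 animal gave 1729 to 2629 lower and 1214 to 2195 higher probes, with 1214 without anti-miR-214 replicate 3 and 1246 without control replicate 2. Of the 9 genes, 3 were lower as reported, 0 with the probe gap, 1 without anti-miR-214 replicates 3 and 4, and 2 to 3 with 1 animal left out. The median of the 9 was -0.20, -0.43 with the probe gap, -0.0091 without control replicate 1, and -0.27 to -0.0091 with 1 animal left out.

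In the 7 related lists the 13 lower calls became 6 in slide 1 alone, 0 with the probe gap, 3 without anti-miR-214 replicates 3 and 4, and 7 without control replicate 2 (7 to 17 with 1 animal left out). The 7 higher calls became 2 with scaling to the median of all probes, 0 with the probe gap, and 2 without anti-miR-214 replicates 3 and 4 (6 to 9 with 1 animal left out). Probe pairs that differed in change numbered 1492 as reported, 2714 with no detection filter, 962 with detection on all 8 arrays, 961 in slide 1 alone, 1 with the probe gap, 687 without anti-miR-214 replicates 3 and 4, and 1091 to 1598 with 1 animal left out. The gap is the mean of these same probe differences, so the fall to 1 was built into that fit.

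Some values changed sign, and none passed after the change. Most were near 0 as reported, but Itga1 (-1.01) had passed, and B3gat3 (0.31) and B4gat1 (0.30) had not. Lamb1 read -0.042 with median scaling, -0.28 with scaling over all probes, -0.22 with the probe gap, -0.15 without anti-miR-214 replicates 3 and 4, and -0.057 to 0.16 with 1 animal left out (below 0 without anti-miR-214 replicate 3, control replicate 2 or control replicate 3). Lamb2 read 0.061 with median scaling, 0.13 in slide 1, 0.060 with array weights, 0.11 with the probe gap, 0.19 without anti-miR-214 replicates 3 and 4, and -0.083 to 0.12 with 1 animal left out (above 0 without anti-miR-214 replicate 3 or 4 or control replicate 1 or 4). With 1 animal left out, Lama5 read -0.023 to 0.11 (below 0 without control replicate 3), Agrn -0.015 to 0.21 (below 0 without control replicate 4) and the dimmer Hspg2 probe -0.23 to 0.050 (above 0 without control replicate 1). With scaling over all probes, Lama5 read -0.10 and B3gat3 -0.0012, and with median scaling the dimmer Hspg2 probe read 0.024. With the probe gap, Agrn read -0.073, Itga1 0.090 and B4gat1 -0.022. The dimmer Nid1 probe did not pass with scaling over all probes (0.28, adjusted p = 0.153). The cause of these shifts was not tested. Signal over background limits Lama2, on 1 of 4 anti-miR-214 arrays, and Lama4, which could not be tested. With the probe gap as a covariate, Lama2 did not pass (-1.89, adjusted p = 0.505), in a fit where the gap and the treatment cannot be told apart.

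Same-numbered animals did not deviate together (correlations 0.015, 0.0631, 0.0508 and 0.204), so the numbers were not taken as pairs. With a replicate block, 2477 probes were lower and 2121 higher, 3 of the 9 genes were lower as before, and Col4a2 and Sparc passed (adjusted p = 0.0359 and 0.0153).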
